A study of Mus musculus with 6 samples.

Results

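The BCL2 family comprises the proteins that decide whether the outer mitochondrial membrane is opened during apoptosis, and 10 of its genes were followed here. They are a fixed list of names. The 10 are the survival genes Bcl2, Bcl2l1 and Mcl1, the BH3-only genes Bid, Bcl2l11, Bmf, Bbc3 and Pmaip1, and the effector genes Bax and Bak1. All 10 were found among the 23337 genes listed, and all 10 passed the filter on low counts, as did 14222 genes in all. The cells were sinusoidal endothelial cells of mouse liver in primary culture, isolated with immunomagnetic beads and grown on collagen IV, and their RNA was sequenced. The 3 stretch libraries (replicates 1, 2 and 4) came from cells under 4% cyclic stretch at 1 Hz on a Flexcell device, which deforms a flexible culture membrane. The 3 control libraries (replicates 2, 3 and 4) came from unstretched cells, and the design text of the series says that the cells were deprived of serum beforehand. No label gives the strain and age of the mice, the number of mice behind each library or the duration of stretch, so p-values measure the spread between these libraries, which may be technical.

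In healthy cells the survival proteins BCL2, BCL-XL (from Bcl2l1) and MCL1 hold the effectors BAX and BAK in check. BH3-only proteins carry stress signals to them: they occupy the survival proteins through a short helix, the BH3 domain, and some also activate BAX and BAK directly. Once active, BAX and BAK form pores, cytochrome c leaves the mitochondria, and the apoptosome and caspases are switched on.

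The BH3 helix is the element the family shares, and the coding stretches around it set genes that moved in opposite directions side by side. Each stretch is 60 bases of coding strand, 5′ to 3′, from GENCODE transcripts on GRCm38, and the capitals mark the 6 codons of the BH3 core, from its leucine codon to its aspartate codon. Each protein held 1 match to the core, and each stretch lay within 1 exon.
Bid, chr6:120897277-120897336, minus strand: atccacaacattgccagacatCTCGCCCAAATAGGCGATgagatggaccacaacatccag
Bcl2l11, chr2:128147129-128147188, plus strand: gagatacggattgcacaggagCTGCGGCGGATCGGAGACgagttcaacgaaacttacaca
Bmf, chr2:118545088-118545147, minus strand: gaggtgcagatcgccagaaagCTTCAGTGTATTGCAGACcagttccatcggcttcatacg
Bbc3, chr7:16313752-16313811, plus strand: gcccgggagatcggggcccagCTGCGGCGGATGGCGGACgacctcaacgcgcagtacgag
Bcl2, chr1:106712563-106712622, minus strand: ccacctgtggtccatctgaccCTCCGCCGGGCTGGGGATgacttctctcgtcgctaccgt
Bcl2l1, chr2:152829685-152829744, minus strand: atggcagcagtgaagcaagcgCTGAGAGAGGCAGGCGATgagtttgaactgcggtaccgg
Bax, chr7:45465985-45466044, minus strand: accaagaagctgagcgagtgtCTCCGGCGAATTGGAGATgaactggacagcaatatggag
The match itself required leucine first, aspartate last and glycine or alanine just before the aspartate, so what can be compared is the rest. No pair of the 7 genes had the same 18 core bases.

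Levels of different genes were compared as the authors' RPKM (reads per kilobase of listed length and per 1000000 reads). The listed length is headed as coding length but takes in more than coding sequence: it is 7737 bases for Bcl2, whose protein has 236 residues. Bax was the highest of the 10 in every library, at 336 ± 12.3 RPKM in stretch and 333 ± 12.4 RPKM in control libraries (SD, n = 3 each), and only 167 of the genes tested had a higher mean. Next came Bcl2l1, at 107 ± 2.40 RPKM in stretch and 89.5 ± 2.96 in control libraries, and Mcl1, at 104 ± 5.0 in stretch and 102 ± 1.71 in control libraries. Bcl2l1 and Mcl1 lay within their spread of each other in stretch libraries, while Mcl1 was the higher of the pair in all 3 control libraries.

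Bak1 had 31.6 ± 1.49 RPKM in stretch and 34.1 ± 2.77 in control libraries, and Bid had 33.04 ± 0.427 in stretch and 21.6 ± 0.680 in control libraries. This pair changed places: Bid stood above Bak1 in all 3 stretch libraries and below it in all 3 control libraries. The difference between their means was within the SD of Bak1 in stretch libraries and beyond it in control libraries. Bbc3 had 14.0 ± 1.75 RPKM in stretch and 17.9 ± 0.649 in control libraries, and Bcl2l11 had 5.98 ± 0.479 in stretch and 10.9 ± 0.802 in control libraries. The lowest 3 were Pmaip1, Bcl2 and Bmf, all under 4 RPKM on average in both groups. Within them Bmf was lowest in every stretch library and Bcl2 in every control library, and Pmaip1 and Bcl2 in stretch libraries lay within their spread of each other.

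**Figure D1:**
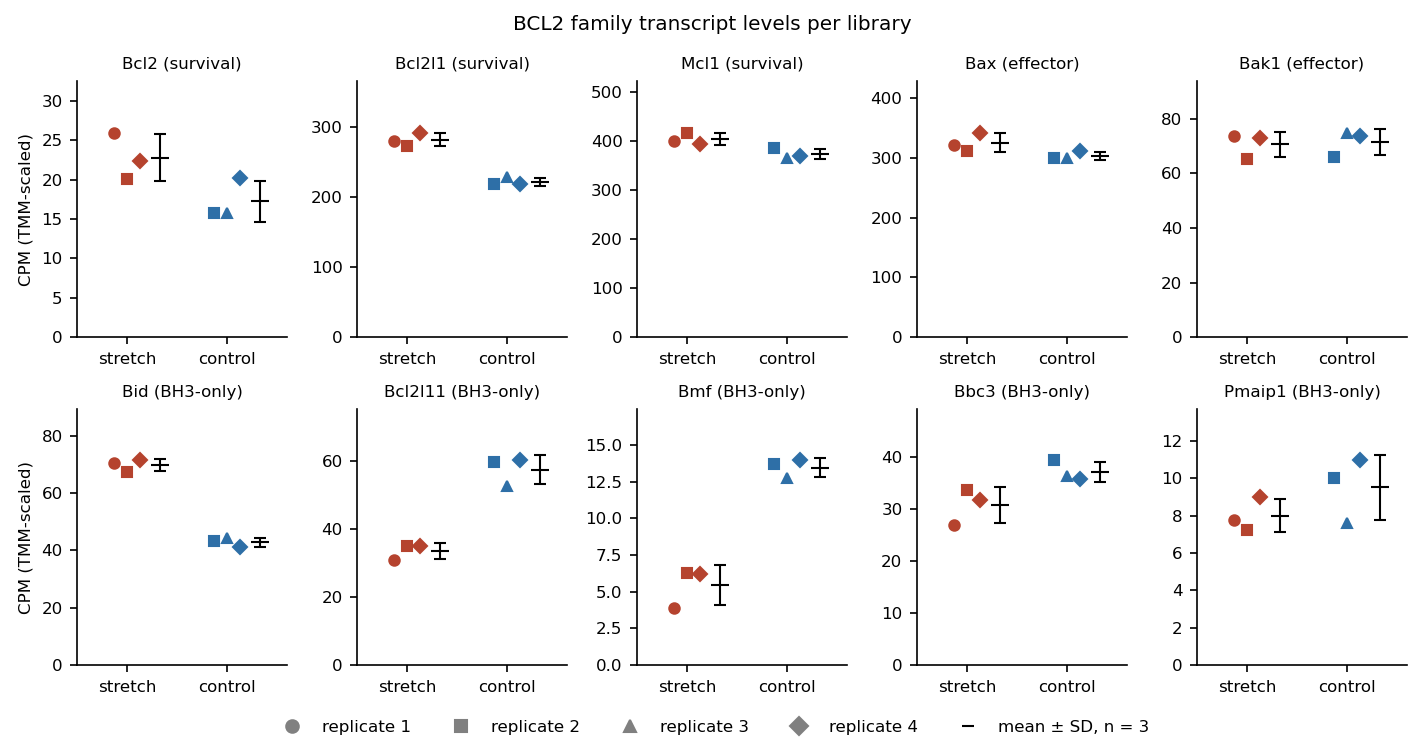
TMM-scaled CPM (y axis, from 0) of each member in the 3 stretch libraries (left, red) and the 3 control libraries (right, blue); marker shapes give the replicate number, and the bars are mean ± SD, n = 3. Bid and Bcl2l1 stand higher and Bcl2l11, Bmf and Bbc3 lower in every stretch library than in any control library, while Bax, Bak1, Pmaip1 and Bcl2 overlap.

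The comparison between stretch and control asks which of these transcripts differ when the cells are cyclically stretched. Of the 10, 6 were called at an adjusted p under 0.05: Bid, Bcl2 and Bcl2l1 were higher in stretch libraries, and Bcl2l11, Bmf and Bbc3 were lower. Mcl1, Pmaip1, Bax and Bak1 were not called. Among all genes tested 44.0% were called (6261 of 14222), 21.4% higher and 22.6% lower, so 6 of 10 is not far above the share of all genes and shows nothing particular to the family. The median absolute log2 fold change was 0.307 over the 10 and 0.262 over all genes tested. The members that stood out by size were Bmf, Bcl2l11 and Bid, whose absolute log2 fold changes lay at the percentiles 96.9, 88.7 and 86.3 of all genes tested. The ranges of normalised counts did not overlap between groups for 6 of the 10 (all called members except Bcl2, and Mcl1), against 55.9% of all genes tested. In bulk RNA, fewer cells of a type and less RNA per cell cannot be told apart.

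Among the survival genes, Bcl2l1 (chr2:152780668-152831682 in the deposited positions, GRCm38) rose. It had 281, 274 and 293 CPM (counts per 1000000 counts of TMM-scaled library size) in stretch replicates 1, 2 and 4, against 219, 229 and 219 CPM in control replicates 2, 3 and 4. Every stretch library lay above every control library, and the log2 fold change was 0.34 ± 0.05 (SE; edgeR adjusted p = 0.000587).

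Bcl2 (chr1:106538179-106714290), the founding member of the family, is a low transcript here. It had 26.0, 20.1 and 22.3 CPM in stretch libraries, against 15.8, 15.7 and 20.2 CPM in control libraries. The groups overlapped, since control replicate 4 lay just above stretch replicate 2. Its log2 fold change was 0.40 ± 0.12 (adjusted p = 0.0283), and the call was lost when any 1 of 4 libraries was left out: stretch replicate 1 (adjusted p = 0.0784), stretch replicate 4 (0.0654), control replicate 2 (0.108) or control replicate 3 (0.0925).

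Mcl1 (chr3:95658721-95663178) encodes the short-lived survival protein that is the main partner of NOXA (from Pmaip1). It had 401, 417 and 394 CPM in stretch libraries, against 386, 365 and 369.6 CPM in control libraries. All stretch libraries lay above all control libraries by a small margin, with a log2 fold change of 0.11 ± 0.05 (adjusted p = 0.0791). The interval of 2 SE around it was 0.02 to 0.21. The authors' RPKM of Mcl1, which were not TMM-scaled, overlapped between the groups.

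Of the BH3-only genes, Bcl2l11, Bmf and Bbc3 fell and Bid rose, and Pmaip1 was not called. Bcl2l11 (chr2:128126038-128162547) encodes BIM, which binds all the survival proteins and can activate BAX directly. It had 30.9, 34.9 and 34.9 CPM in stretch libraries, against 59.6, 52.6 and 60.2 CPM in control libraries. The highest stretch library lay well under the lowest control library, and the log2 fold change was -0.78 ± 0.07 (adjusted p = 0.000116), a level 1.71-fold lower under stretch.

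Bmf (chr2:118528757-118549678) encodes a BH3-only protein that, like BIM, binds dynein light chains. Its level was 3.91, 6.28 and 6.19 CPM in stretch libraries, against 13.7, 12.8 and 13.9 CPM in control libraries. These rest on 218 to 426 counts a library in stretch and 645 to 807 in control libraries. Stretch replicate 1 was the lowest of all, and no stretch library reached the range of the control libraries. Bmf had the largest change of the 10, with a log2 fold change of -1.30 ± 0.17 (adjusted p = 0.000503), or 2.46-fold lower. Without stretch replicate 1 it was -1.10.

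Bbc3 (chr7:16309583-16318334) encodes PUMA, a target of p53 that also binds all the survival proteins. It had 27.0, 33.6 and 31.7 CPM in stretch libraries, against 39.4, 36.3 and 35.8 CPM in control libraries. The groups did not overlap, but the gap between them was smaller than the spread within the stretch libraries. The log2 fold change was -0.27 ± 0.08 (adjusted p = 0.0291). The call was lost when any 1 library but stretch replicate 2 was left out, with an adjusted p between 0.0505 and 0.113, and the log2 fold change was -0.18 without stretch replicate 1.

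Pmaip1, which encodes NOXA, had 7.78, 7.25 and 9.0 CPM in stretch libraries, against 10.04, 7.59 and 11.0 CPM in control libraries. Control replicate 3 lay inside the range of the stretch libraries. The log2 fold change of Pmaip1 was -0.25 ± 0.15 (adjusted p = 0.201), with an interval of 2 SE from -0.55 to 0.04.

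Bid (chr6:120893119-120916820) went the other way. Its protein is inactive until it is cleaved, most often by caspase 8, which links death receptors to the mitochondria. Bid had 70.3, 67.3 and 71.3 CPM in stretch libraries, against 43.0, 44.1 and 41.2 CPM in control libraries. The libraries of each group lay close together with a wide gap between the groups. The log2 fold change of 0.70 ± 0.05 (adjusted p = 5.34e-05), or 1.63-fold, had the smallest p of the 10 members.

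Neither effector gene, Bax (chr7:45461695-45466898) or Bak1 (chr17:27019812-27028626), was called. Bax had 322, 312 and 343 CPM in stretch libraries, against 299.7, 299.8 and 312 CPM in control libraries, and the groups overlapped. Its log2 fold change was 0.10 ± 0.05 (adjusted p = 0.139), with an interval of 2 SE from 0.00 to 0.20. Bak1 had 73.7, 65.3 and 72.8 CPM in stretch libraries, against 66.0, 74.8 and 73.7 CPM in control libraries. Its groups overlapped over nearly their whole range, with a log2 fold change of -0.02 ± 0.07 (adjusted p = 0.852) and an interval of 2 SE from -0.15 to 0.12. The estimate leaves room for a change of Bak1 anywhere within that interval. Ggnbp1 overlaps Bak1 in the deposited positions, but it held 29 to 44 counts a library against 3785 to 4433 for Bak1.

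In the authors' deposited table, the same 6 of the 10 members had an FDR under 0.05. The authors' log2 fold changes in that table were -1.30 for Bmf, -0.78 for Bcl2l11 and 0.70 for Bid, all stretch over control.

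By summed RPKM, which were not TMM-scaled, the BH3-only transcripts came to a similar total in both groups with a different make-up. The likeness of the totals depends on the scaling. TMM factors were 0.953, 0.991 and 0.961 in stretch replicates 1, 2 and 4, and 1.02, 1.03 and 1.04 in control replicates 2, 3 and 4. Dividing by them would raise the stretch totals and lower the control totals. As deposited, the 5 genes together had 56.8 ± 2.50 RPKM in stretch and 56.5 ± 1.12 RPKM in control libraries. Bid made up 61.2%, 55.9% and 57.7% of that sum in stretch libraries, against 37.1%, 40.4% and 36.9% in control libraries. Bcl2l11 made up 10.5% ± 0.399 in stretch and 19.2% ± 1.10 in control libraries, and Bbc3 made up 24.6% ± 2.12 in stretch and 31.7% ± 0.919 in control libraries. The share of Bmf was 1.85% ± 0.405 in stretch and 4.89% ± 0.182 in control libraries, and that of Pmaip1 was 4.77% ± 0.448 in stretch and 6.05% ± 1.03 in control libraries. These shares were described without a test.

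**Figure D2:**
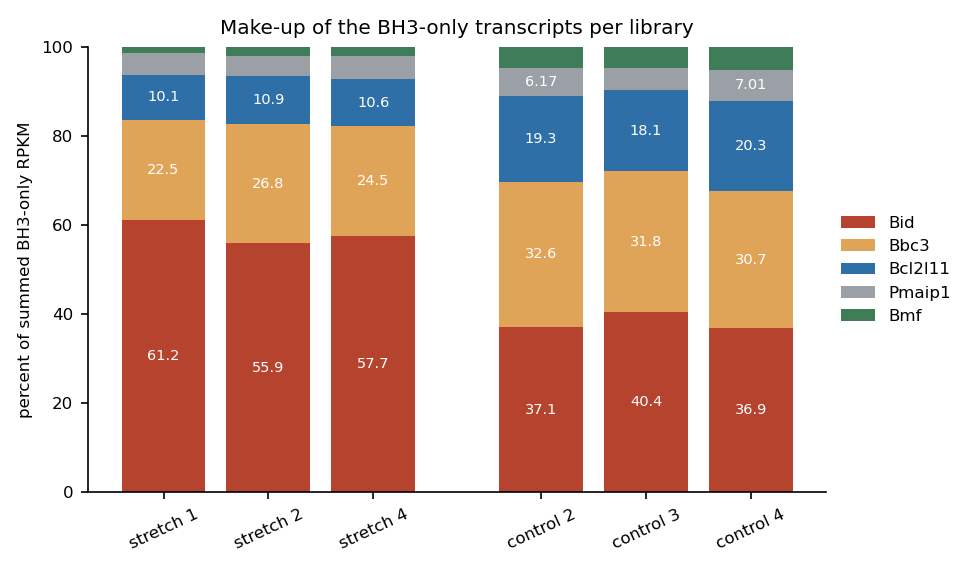
Share of each BH3-only gene in the summed RPKM of the 5 (y axis, percent, bars stacked from 0) in each library, with the 3 stretch libraries left of the 3 control libraries. Bid makes up more of the bar in every stretch library (55.9% to 61.2%) than in any control library (36.9% to 40.4%).

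Across the whole family the classes shifted little. Survival genes made up 33.6%, 34.3% and 32.6% of the summed RPKM of the 10 in stretch libraries, against 31.9%, 31.6% and 30.7% in control libraries, which did not overlap. Effector genes, nearly all of it Bax, made up 57.6% ± 1.04 in stretch and 59.4% ± 0.863 in control libraries. Every stretch library lay below every control library, but by a narrow margin (58.55% in stretch replicate 4 against 58.61% in control replicate 2). BH3-only genes made up 8.90% ± 0.285 in stretch and 9.16% ± 0.305 in control libraries, a difference within the spread between replicates. Counted by reads and not per length, the BH3-only share was 11.8% ± 0.450 in stretch and 14.0% ± 0.459 in control libraries, because the long Bcl2l11 and Bmf transcripts then weigh more. The effector shares by reads overlapped, at 30.5% to 32.5% in stretch and 31.7% to 33.3% in control libraries.

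Ratios of members within 1 library do not depend on how libraries are scaled, and 6 pairs of a death gene and a survival gene were compared. The pairs were drawn from members chosen with earlier results of these data known. Their log2 differences largely follow from the fold changes above, so the ratios and their p-values add no independent evidence. Bid, the BH3-only gene that rose, was in none of the pairs. Its log2 fold change of 0.70 was above those of Bcl2l1 (0.34), Bcl2 (0.40) and Mcl1 (0.11), so pairs with Bid would move the other way. The ratio of Bcl2l11 to Bcl2l1 was 0.0560 ± 0.00413 in stretch and 0.122 ± 0.0119 in control libraries, a log2 difference of -1.12. Bcl2l11 to Mcl1 was 0.0575 ± 0.00395 in stretch and 0.106 ± 0.00660 in control libraries, a log2 difference of -0.89. In these pairs, and in Bbc3 to Mcl1 (-0.39) and Bak1 to Bcl2l1 (-0.36), every stretch library lay below every control library. Each of these 4 pairs had p = 0.1 in a two-sided exact permutation test over the 6 libraries, the smallest p that 3 against 3 allows, and 0.15 after Benjamini-Hochberg adjustment over 6 pairs. The groups overlapped for Pmaip1 to Mcl1 (-0.35) and for Bax to Bcl2 (-0.31), each with an exact p = 0.2 before and after adjustment. The Bax to Bcl2 ratio was 128 ± 15.5 in stretch and 159 ± 18.4 in control libraries.

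**Figure D3:**
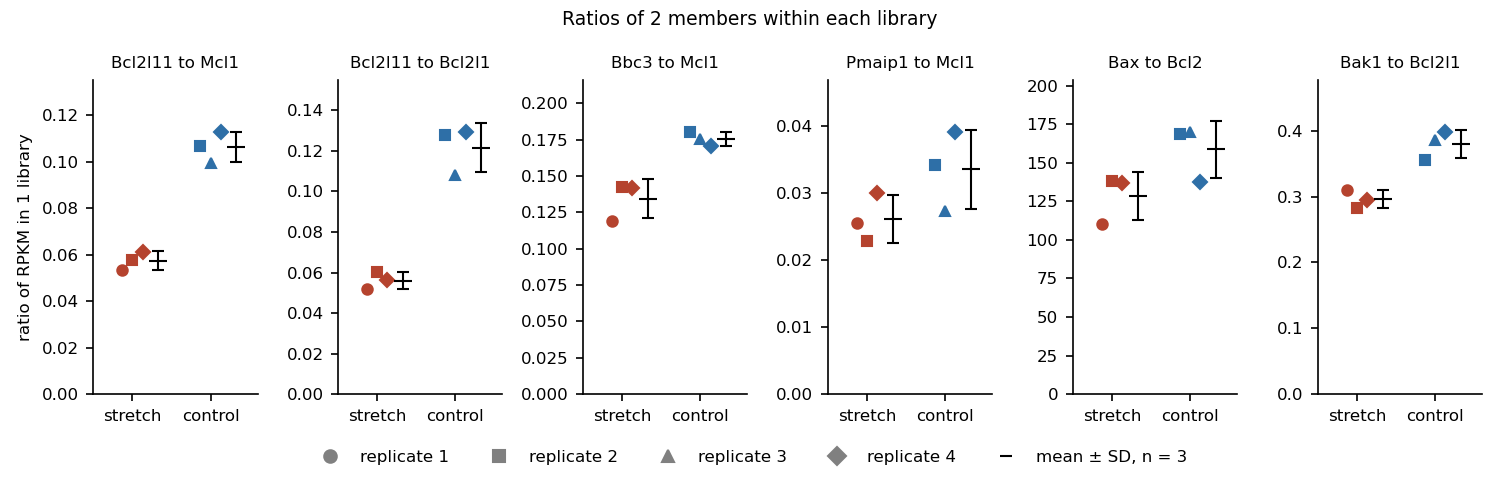
Ratio of the RPKM of a death gene to that of a survival gene within each library (y axes, from 0) for the 6 pairs, with stretch (red) left of control (blue) and mean ± SD, n = 3. The groups are separate for Bcl2l11 to Mcl1, Bcl2l11 to Bcl2l1, Bbc3 to Mcl1 and Bak1 to Bcl2l1, and overlap for Pmaip1 to Mcl1 and Bax to Bcl2. Bid, which rose, is in none of the pairs.

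Promoter windows from RefSeq (GRCm38.p6, 300 bases around a start site) were matched for the 9 members examined, and 3 are shown because they belong to the members with the largest changes. For each member 1 window was searched, with the start site nearest to the 5′ end of its deposited position. Bcl2l1, Bmf and Bbc3 had 3 windows each and Bcl2l11 had 2, so absences hold for the searched windows only. The letters run 5′ to 3′ on the gene's strand, and capitals mark matches, on either strand, to the motifs searched.
Bid, chr6:120916775-120917074, minus strand: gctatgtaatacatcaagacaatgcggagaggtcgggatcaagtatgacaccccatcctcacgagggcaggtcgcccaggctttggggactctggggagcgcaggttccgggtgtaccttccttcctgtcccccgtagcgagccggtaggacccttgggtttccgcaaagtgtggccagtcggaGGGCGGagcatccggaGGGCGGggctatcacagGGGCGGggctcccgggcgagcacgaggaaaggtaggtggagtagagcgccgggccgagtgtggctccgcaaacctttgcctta
Bcl2l11, chr2:128125788-128126087, plus strand: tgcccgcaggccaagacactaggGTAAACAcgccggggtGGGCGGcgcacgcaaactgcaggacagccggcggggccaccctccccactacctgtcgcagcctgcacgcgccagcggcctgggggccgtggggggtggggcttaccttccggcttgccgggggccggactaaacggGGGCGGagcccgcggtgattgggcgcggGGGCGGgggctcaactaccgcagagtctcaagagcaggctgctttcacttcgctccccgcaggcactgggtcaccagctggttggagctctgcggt
Bmf, chr2:118549637-118549936, minus strand: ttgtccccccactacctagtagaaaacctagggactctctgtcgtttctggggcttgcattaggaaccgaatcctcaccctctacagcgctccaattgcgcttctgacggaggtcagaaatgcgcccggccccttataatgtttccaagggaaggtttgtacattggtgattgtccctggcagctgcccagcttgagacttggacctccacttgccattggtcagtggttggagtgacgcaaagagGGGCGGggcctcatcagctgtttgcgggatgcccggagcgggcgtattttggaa
The motifs were AP-1 (TGANTCA), FOXO (GTAAACA), CRE (TGACGTCA), E-box (CACGTG), GC box (GGGCGG) and, by name, an NF-kB site and a p53 half-site. Of 32851 promoter windows, 3.65% held the FOXO letters, and among the 9 members only the Bcl2l11 window did, with 1 match that begins at position -227 from the start site. GC boxes were in 7 of the 9 windows (all but Bcl2l1 and Bak1) and in 35.7% of all windows, with 3 each in Bid and Bcl2l11 and 1 in Bmf. The AP-1 letters (7.81% of all windows) and CRE letters (1.79%) were in none of the 9. E-box letters (7.15%) and the p53 half-site (8.36%) were in the Bax window only, and the NF-kB site (4.51%) in that of Bbc3 only. These letters describe the windows and do not show binding.

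The factors known to act on these genes were read out as transcripts. Of 14 tested of 15, 8 rose and 2 fell, against 21.4% higher and 22.6% lower among all genes tested. The list was chosen with earlier results of these data known, so the count is a description. Atf3, a stress-induced factor, had 245 ± 19.3 CPM in stretch and 84.9 ± 8.78 CPM in control libraries (log2 fold change 1.53 ± 0.09, adjusted p = 3.8e-05). Myc (0.75 ± 0.06), Atf4 of the integrated stress response (0.57 ± 0.06) and the NF-kB subunit gene Rela (0.45 ± 0.05) rose as well, each above every control library in every stretch library. The factors that fell were Foxo4 (-0.59 ± 0.09, adjusted p = 0.00108) and E2f1 (-0.47 ± 0.11, adjusted p = 0.00946), and Foxo1 (-0.06 ± 0.07) and Foxo3 (-0.20 ± 0.07, adjusted p = 0.0535) were not called. The other factors that rose were Trp53 (0.33 ± 0.06, adjusted p = 0.00205), Ddit3 (0.40 ± 0.11), Nfkb1 (0.42 ± 0.05) and Jun (0.42 ± 0.05). Stat3 (0.07 ± 0.04) and Creb1 (0.14 ± 0.05) were not called. All of these factors except Atf3, Myc, Atf4 and Rela were named after their values were seen.

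Of 16 further BCL2 family genes, 10 passed the filter, and 3 of them rose and 2 fell, or 1 and 3 with libraries scaled by size alone. The 5 of 10 called are not far above the 44.0% of all genes tested. The survival gene Bcl2l2 had 72.8 ± 1.49 CPM in stretch and 62.6 ± 2.22 CPM in control libraries (log2 fold change 0.22 ± 0.05, adjusted p = 0.00555). Bad, a BH3-only gene whose protein is held inactive by phosphorylation, had 16.0 ± 0.788 CPM in stretch and 24.3 ± 0.987 CPM in control libraries (-0.60 ± 0.06, adjusted p = 0.000200). The mitophagy receptor gene Bnip3l fell too (-0.40 ± 0.05, adjusted p = 0.000591). Bcl2a1b, a survival gene with near-identical copies whose reads may be split between them, had 86 counts over all libraries and a log2 fold change of 2.11 ± 0.48 (adjusted p = 0.00769), so its value is uncertain. The third gene that rose was Bcl2l13 (0.17 ± 0.05), named after its value was seen.

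Downstream, in the list of apoptosome, caspase and inhibitor genes, 3 of 17 rose and 8 fell. Among all genes tested, 21.4% were higher and 22.6% lower. The number that fell was 5 without stretch replicate 1, stretch replicate 4, control replicate 2 or control replicate 3. Birc3, an inhibitor of apoptosis gene and NF-kB target, had 123 ± 1.83 CPM in stretch and 80.9 ± 4.84 CPM in control libraries (log2 fold change 0.61 ± 0.05, adjusted p = 9.36e-05). Cycs, which encodes cytochrome c, rose by 0.50 ± 0.07. Casp2 had 23.2 ± 1.82 CPM in stretch and 31.5 ± 1.19 CPM in control libraries, and fell (-0.44 ± 0.07, adjusted p = 0.00128). The list's median log2 fold change was -0.17, against -0.015 over all genes tested.

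On the death receptor side, 1 of 9 genes tested of 10 rose and 4 fell. With 44.0% of all genes tested called, 5 of 9 is not far above that share. Without stretch replicate 1, 2 fell, and with libraries scaled by size alone 6 did. The ligand gene Tnfsf10 (TRAIL) had 1.09, 1.44 and 0.765 CPM in stretch libraries, against 7.48, 5.20 and 7.18 CPM in control libraries. No stretch library came near the control range, and the log2 fold change was -2.58 ± 0.25 (adjusted p = 0.000141). Cflar, whose product FLIP blocks caspase 8, the enzyme that cleaves BID, had 656 ± 55.0 CPM in stretch and 428 ± 9.95 CPM in control libraries (0.62 ± 0.06, adjusted p = 0.000189). The receptor gene Tnfrsf1a (-0.36 ± 0.05) and the adaptor gene Fadd (-0.20 ± 0.06) fell.

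**Figure D4:**
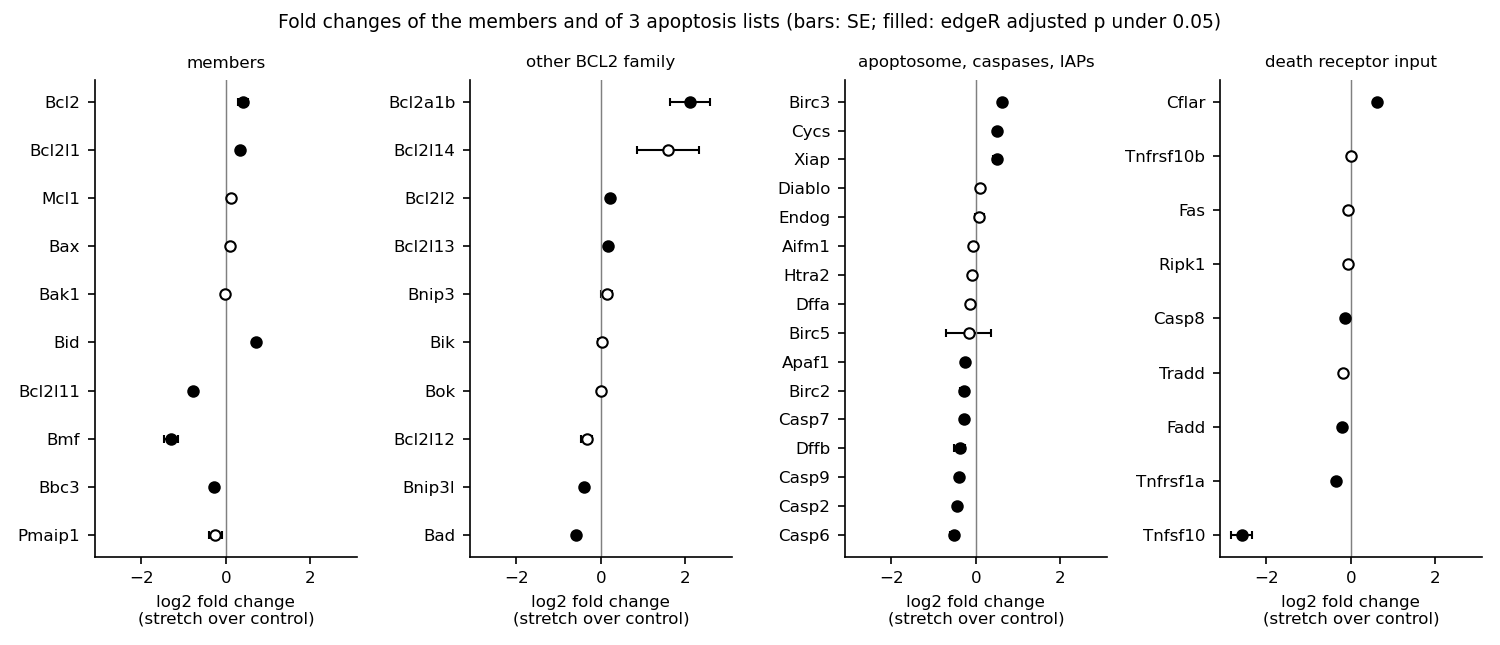
Log2 fold changes (x axis, stretch over control, bars SE) of the 10 members and of tested genes of 3 lists; filled points had an edgeR adjusted p under 0.05. Bid lies to the right of 0 and Bcl2l11, Bmf and Bbc3 to its left, and Tnfsf10 is farthest left at -2.58.

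Of the 11 mitochondrial partners of the family, 4 rose and 2 fell, and these 6 of 11 are not far above the 44.0% called among all genes. Only 2 rose and 1 fell without stretch replicate 4, control replicate 2 or control replicate 4, 1 fell without stretch replicate 1 or stretch replicate 2, and 2 rose and 3 fell with size scaling. The dynein light chain genes, whose products bind BIM and BMF, were split: Dynll1 had 129 ± 5.6 CPM in stretch and 96.3 ± 2.53 CPM in control libraries (0.42 ± 0.05), and Dynll2 had 111 ± 2.48 CPM in stretch and 128 ± 3.70 CPM in control libraries (-0.21 ± 0.04). The channel genes Vdac2, whose product binds BAK (0.24 ± 0.05), and Vdac3 (0.16 ± 0.05) rose. Of 7 genes for the turnover of MCL1 protein, Cul3 rose (0.25 ± 0.04), Btrc fell (-0.38 ± 0.07) and 5 were not called.

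The genes whose profile over the 6 libraries was most like that of Bid, by the root mean square difference of centred log2 CPM among 5633 genes, were Ppid (0.018), Nfkbib (0.019) and Psmd8 (0.024), against a median of 0.336 for those genes. For Bcl2l11 they were Prkch (0.033), Ulk1 (0.036) and Jub (0.039), against a median of 0.424. These genes were picked as the nearest, so values under the median follow from the choice. Their log2 fold changes were 0.71, 0.72 and 0.72 for Bid and -0.76, -0.77 and -0.70 for Bcl2l11, close to those of the 2 members. Ulk1 encodes an autophagy kinase.

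Markers of the labelled cell type were abundant in every library. The 8 pan-endothelial markers summed to 6868 to 7588 CPM in stretch and 7042 to 7907 CPM in control libraries (0 rose and 5 fell). Without stretch replicate 2, stretch replicate 4, control replicate 2 or control replicate 4, 3 fell, and 1 rose without control replicate 4. The 10 sinusoidal markers summed to 5814 to 6755 CPM in stretch and 7964 to 9066 CPM in control libraries (0 rose and 8 fell). For every marker list the counts stand against 21.4% higher and 22.6% lower among all genes tested. Markers of other cells moved too. Hepatocyte markers summed to 485, 101 and 97.8 CPM in stretch libraries, against 57.5, 36.1 and 71.8 CPM in control libraries (9 of 10 rose, none at 0). That count rests on single libraries: it was 4 without stretch replicate 1, 0 without control replicate 2, 1 without control replicate 3, 3 without control replicate 4 and 0 with limma-voom. Macrophage markers summed to 111 to 152 CPM in stretch and 78.3 to 93.0 CPM in control libraries (7 of 8 tested rose). Most of that sum was Cd68, at 81.9 ± 12.6 CPM in stretch and 66.9 ± 4.36 CPM in control libraries, which was not called. Of the 10 macrophage markers, 4 averaged under 1 CPM. Cholangiocyte markers summed to 223 to 271 CPM in stretch and 136 to 172 CPM in control libraries (4 of 6 rose). In each of these 3 lists every stretch library lay above every control library. Stellate cell and fibroblast markers summed to 57.7 to 96.3 CPM in stretch and 72.1 to 79.8 CPM in control libraries (1 of 9 tested rose, and 0 when any 1 library but stretch replicate 1 was left out). Of 9 leukocyte markers, Cd3g, Ms4a1, Nkg7 and S100a9 were at 0 in all libraries and the sum was under 2 CPM, and no marker of the other lists was at 0 in all libraries. The part of other cells in the member differences was not tested. Stretch replicate 1 had the highest hepatocyte sum, and the other stretch libraries still lay above all control libraries. Without stretch replicate 1, Bid (0.70), Bcl2l1 (0.35), Bcl2l11 (-0.71) and Bmf (-1.10) were called, and Bcl2 (0.31, adjusted p = 0.0784) and Bbc3 (-0.18, adjusted p = 0.0592) were not.

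**Figure D5:**
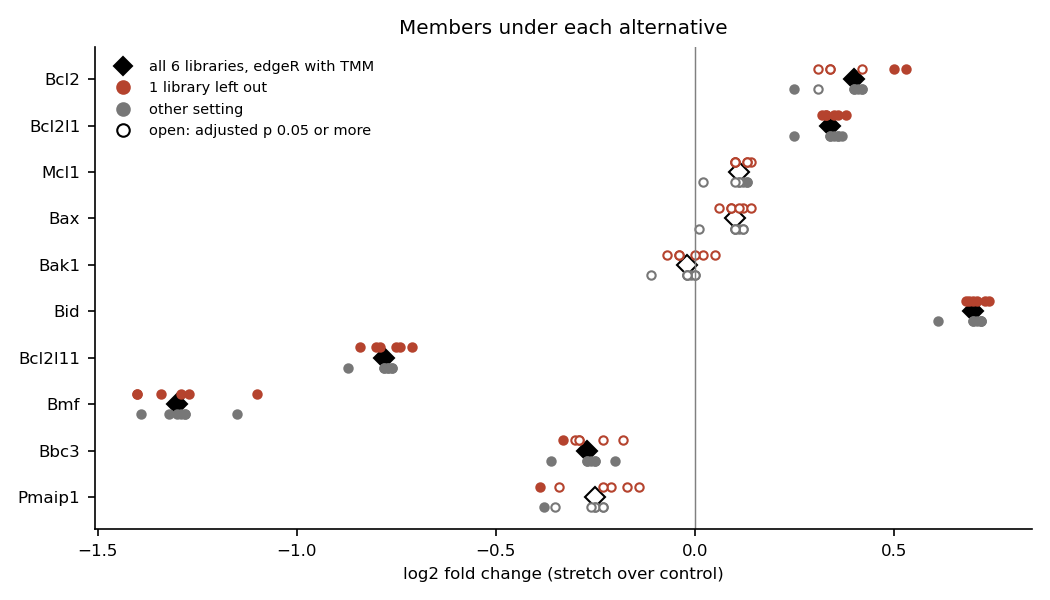
Log2 fold change (x axis, stretch over control) of each member with all 6 libraries (black), with 1 library left out (red) and under 7 other settings (grey); open symbols had an adjusted p of 0.05 or more. Bid, Bcl2l1, Bcl2l11 and Bmf stay filled throughout, and Bak1 lies on both sides of 0.

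Across 13 other analyses, drawn in the plot of each member under every alternative, Bid (0.61 to 0.74), Bcl2l1 (0.25 to 0.38), Bcl2l11 (-0.87 to -0.71) and Bmf (-1.40 to -1.10) were called in each. Bcl2 and Bbc3 kept their signs and were each called in 8 of 13. The libraries held 58503669 to 68489956 counts in stretch and 48948948 to 57923937 counts in control, of which the 10 members took 69364 to 84002 in stretch and 57572 to 68076 in control libraries. With libraries scaled by size alone, 2091 genes were higher and 4299 lower, against 3040 and 3221 with TMM scaling. The median log2 fold change over all genes was -0.107 with size scaling, a shift that applies to every gene alike.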

How the data were processed

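RNA of 3 stretch and 3 control libraries was sequenced after TruSeq preparation, and groups were taken from the sample titles. The authors deposited raw counts per gene. TopHat2 2.1.0, featureCounts, edgeR and GRCm38 (mm10) are named, without roles, in the submitters' processing notes, which give neither annotation nor strand setting here. The authors' RPKM are per kilobase of the listed length, with library totals 7.41% to 8.90% above the summed gene counts. Per the file headers, the authors' comparison has a log2 fold change, a likelihood ratio (a score), a p-value and its FDR.

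The test was edgeR 4.0.16 in R 4.3.3 on counts (TMM, filterByExpr, quasi-likelihood F test for group, Benjamini-Hochberg over 14222 genes, threshold 0.05 on the adjusted p, any fold). SEs are the absolute log2 fold change over the square root of F. Levels are TMM-scaled CPM, mean ± SD. The script was tested on simulated data. Counts from 1 to 10 were even in 67.2% to 69.9% and counts of 1000 or more in 49.6% to 50.9% of genes; whether both mates of a pair were counted was not tested. Alternatives used RLE factors, library size, other filters, DESeq2 1.42.0, limma-voom 3.58.1, a replicate block and each library left out. Members and gene lists were chosen with earlier results of these data known. All members were named, with up to 4 called genes of smallest p (or 2) per list, and for likeness 3 genes with a mean log2 CPM of at least 5, outside the lists. Adgre1 is listed as Emr1 and Ajuba as Jub, and Ly6g was not found. Positions are from the deposited files, and coding stretches from GENCODE transcripts of the same build. A sequence of Pmaip1 and 1 gene that the naming rule picked are not reported here.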

Additional observations from a re-analysis of the deposited data

How the results depend on the processing

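Bid, Bcl2l1, Bcl2l11 and Bmf kept direction and call under all 13 alternatives. The number of members called was 7 with RLE factors (Mcl1 added, adjusted p = 0.0466), 7 with DESeq2 (Mcl1 added, adjusted p = 0.0185), 5 with library size only (Bcl2 lost, adjusted p = 0.06985), 6 with limma-voom, with no filter and with the minimum of 1 CPM, and 4 to 6 with 1 library left out. The number of genes called over the whole table was 6044 to 6390 with the other scalings, filters and tools, and 4756 to 5895 with 1 library left out. Pmaip1 was called without control replicate 3 (-0.39, adjusted p = 0.04145). The sign of Bak1 changed in 5 of 13 alternatives, with no call in any. The difference in class shares was 2.1 percentage points for survival and -0.26 for BH3-only genes by RPKM, and 3.24 and -2.19 by raw counts, where longer transcripts weigh more. Of 285 alternative values for the 22 genes outside the 10 that the naming rule picked, 276 kept direction and call and 9 lost the call (of Bcl2a1b, Bcl2l2, Fadd and Vdac3). Genes named after their values were seen are not among the 22, and the gene not reported here is.

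Replicate numbers 2 and 4 occur in both groups, with no stated meaning. Deviations of same-numbered libraries correlated at 0.212 and 0.114 across genes, other pairs at -0.204 to 0.18. With the replicate number as a block, 5568 genes and 7 members were called, Pmaip1 being added (-0.38, adjusted p = 0.0402). Stretch replicate 1 and control replicate 3 have no partner in the other group. The group effect in that fit therefore rests on replicates 2 and 4 of each group only.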
